A study of Drosophila melanogaster with 4 samples.

Results

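Glutathione transferases join the tripeptide glutathione to reactive or foreign compounds and so make them soluble and easier to export. Insects carry soluble enzymes of 6 classes, of which delta and epsilon are expanded in insects and are best known from insecticide resistance, while omega, sigma, theta and zeta are shared with other animals. Several delta genes are classical targets of the CncC transcription factor, the fly counterpart of mammalian Nrf2, which its inhibitor Keap1 holds back until oxidants or foreign compounds arrive. The genes described here are all those whose name in the deposited tables is Gst followed by a class letter D, E, O, S, T or Z and a number. There are 35 of them among 16510 gene names, with 11 of the delta class, 14 epsilon, 3 omega, 1 sigma, 4 theta and 2 zeta. For 27 of the 35 the mean level over the 4 libraries was at least 1 FPKM, the minimum set for a test.

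The series profiled polyadenylated RNA of adult Drosophila melanogaster testes in 4 libraries, 2 from flies of genotype Su(var)3-9, which the series calls mutant, and 2 from wild-type flies. All were males 3 days old, kept at 23 °C, and each library pooled 50 testes. Su(var)3-9 is a histone methyltransferase that modifies lysine 9 of histone H3 in heterochromatin, and no source used here names the mutant alleles or the wild-type strain, so the lesion and the genetic background cannot be told apart. FPKM is the number of sequenced fragments per kilobase of transcript and scaled to the mapped fragments of the library, which allows levels of different genes to be set side by side.

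Before the family was read, the libraries themselves were compared. The estimated number of fragments, taken from the width of the deposited intervals, was 1446647 and 1468278 in the mutant-labelled libraries and 3207719 and 3366747 in wild-type testes, so depth differed with the labelled group. Su(var)3-9 itself was listed at 0 FPKM in mutant replicate 1 and at 7.83 FPKM in mutant replicate 2, against 7.93 and 9.74 FPKM in wild-type testes (log2 fold change -1.72, limma adjusted p = 0.339), so its level does not set mutant replicate 2 apart. Whether the listed 0 in mutant replicate 1 marks an absence of this RNA was not tested. The germline list of 9 genes summed to 20139 and 19096 FPKM in the mutant-labelled libraries and to 12923 and 11830 FPKM in wild-type testes. This difference came mostly from the sperm tail gene Mst87F (mean 6644 to 12021 FPKM) and ocn (2994 to 4934 FPKM). The means of bam, can, Mst35Ba and Mst35Bb were also higher, those of vas, aly and dj lower, and the median log2 fold change was 0.12. The germline sum therefore does not show a larger share of germline cells. The 3 cyst cell genes summed to between 16.1 and 16.7 FPKM in every library. Of these 3, zfh1 was lower in both mutant-labelled libraries (2.57 and 2.52 against 4.18 and 4.89 FPKM in wild-type testes). The untested tj was also lower (0.648 and 0.464 against 1.31 and 1.05 FPKM). The highest, eya, went the other way (13.4 and 13.1 against 11.2 and 10.7 FPKM). Neither zfh1 nor eya passed (limma adjusted p = 0.110 and 0.231). The even sum therefore does not show an equal share of cyst cells. The 6 gut genes summed to 8.35 and 9.23 FPKM in the mutant-labelled libraries and to 17.8 and 13.1 FPKM in wild-type testes. The 2 Malpighian tubule genes did not pass 0.508 FPKM. The 5 fat body genes summed to 19.0 to 24.4 FPKM and the 4 haemocyte genes to 5.88 to 8.07 FPKM. By group means, Lsp2 (7.45 against 2.85 FPKM), Lsd-1, fat-spondin and NimC1 (2.24 against 0.339 FPKM) were higher in the mutant-labelled libraries. Rfabg (4.63 against 8.38 FPKM), Hml (1.82 against 3.80 FPKM), Pxn and the untested Fbp1 were lower. No tested fat body or haemocyte gene passed. Even sums here do not show equal shares of such cells. The 4 neuron genes summed to 19.4 to 22.2 FPKM. Both tested neuron genes passed, in opposite directions: nSyb rose from 8.54 to 16.9 FPKM and brp fell from 12.1 to 2.19 FPKM (limma adjusted p = 0.0243 and 0.0129). Wild type replicate 1 stood apart in its accessory gland genes, whose 11 members summed to 2788 FPKM against 6.61 FPKM in wild type replicate 2 and 12.1 and 46.3 FPKM in the mutant-labelled libraries, with Acp95EF at 0 throughout. The 5 genes of the ejaculatory duct and bulb summed to 295 and 263 FPKM in the mutant-labelled libraries and to 142 and 92.7 FPKM in wild-type testes, nearly all from PebIII, with Dup99B at 0. Their part in the results below was not tested. In such bulk samples a change in the share of a cell type and a change of RNA within cells cannot be told apart.

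In testis the family was dominated by its only sigma gene. GstS1, known as an enzyme of flight muscle that detoxifies lipid peroxidation products, was at 1775 and 1741 FPKM in wild-type testes and at 2493 and 2203 FPKM in the mutant-labelled libraries. It ranked between 45 and 53 among all gene names in every library and alone made up 59.5% to 61.5% of the summed FPKM of the 35 genes. The 6 muscle markers summed to 147 and 190 FPKM in the mutant-labelled libraries and to 141 and 140 FPKM in wild-type testes, with Act57B the highest of them; their part in the level of GstS1 was not tested.

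The other classes followed in the order delta, epsilon, omega, theta and zeta in every library. Delta genes summed to 743 and 695 FPKM in wild-type testes and to 876 and 890 FPKM in the mutant-labelled libraries. Epsilon genes summed to 209 and 201 FPKM in wild-type testes and to 387 and 335 FPKM in the mutant-labelled libraries. The epsilon class thus had a ratio of 1.76 between the group means, against 1.23 for delta, 1.19 for omega, 1.34 for sigma, 1.32 for theta and 2.02 for the barely expressed zeta class. The FPKM of all genes, however, summed to 1028898 and 1004211 in the mutant-labelled libraries and to 851134 and 810704 in wild-type testes. As a share of that sum the ratio was 1.44 for epsilon, 1.004 for delta, 0.974 for omega, 1.09 for sigma, 1.07 for theta and 1.66 for zeta, so on this scale delta was about level and omega slightly lower. Omega genes lay between 175 and 220 FPKM in sum and theta genes between 48.3 and 76.9 FPKM. The zeta genes, whose mammalian relatives act in tyrosine breakdown, summed to at most 5.29 FPKM in any library. All 35 genes together came to 2971 and 2863 FPKM in wild-type testes and to 4052 and 3706 FPKM in the mutant-labelled libraries (ratio 1.33), or to 0.349% and 0.353% against 0.394% and 0.369% of the summed FPKM of the library (ratio 1.09). These sums are a description: 2 libraries against 2 cannot give an exact permutation p below 0.33, two-sided.

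**Figure D1:**
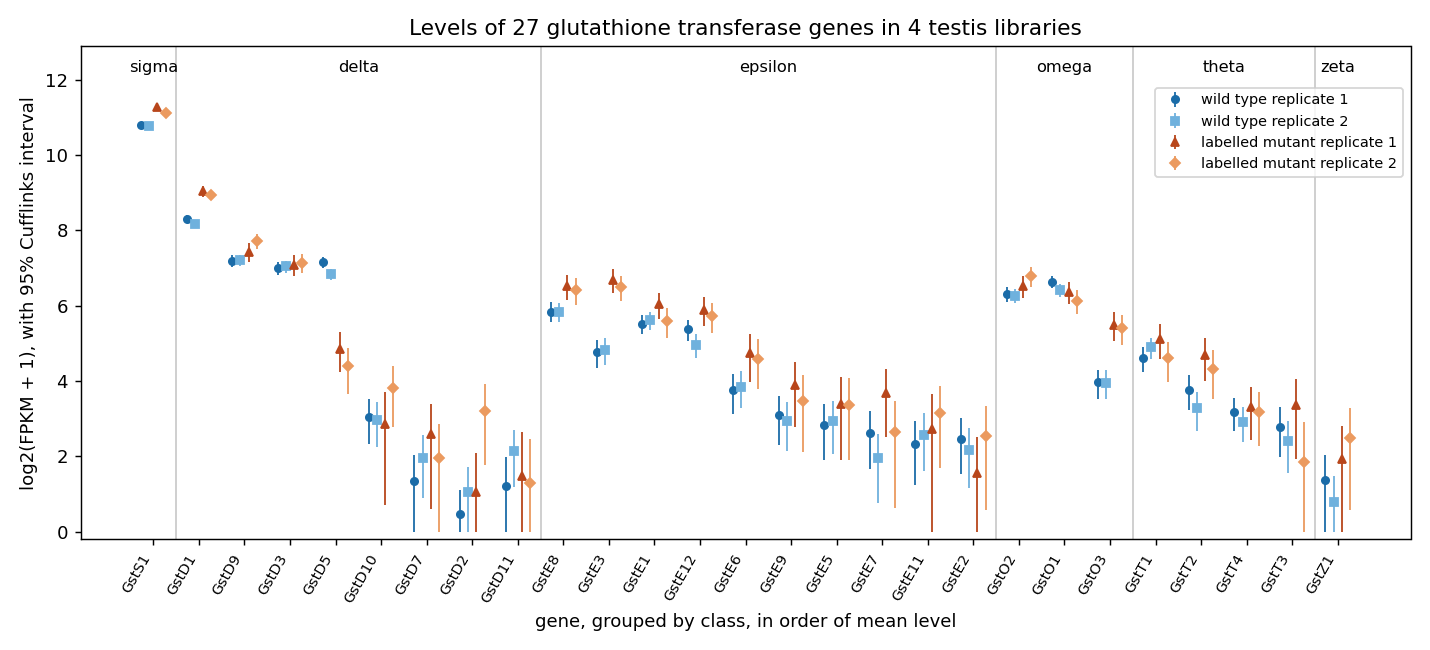
Levels of the 27 tested genes, as log2(FPKM + 1), grouped by class and ordered by mean level, with 1 point per library and bars for the deposited 95% interval. GstS1 is the highest in all 4 libraries, intervals widen for low genes, and GstD5, GstE3 and GstO3 show separate pairs of libraries.

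Levels within a class were spread widely, down to a listed 0. In the delta class GstD1, the best known enzyme of the family for its action on DDT, led with 317 and 289 FPKM in wild-type testes, followed by GstD9 (145 and 147 FPKM), while GstD5 (142 and 113 FPKM) and GstD3 (127 and 132 FPKM) changed places between the wild-type libraries. The remaining delta genes were low, with GstD10 at 6.31 to 13.1 FPKM over the 4 libraries, GstD7 at 1.55 to 4.99 FPKM, GstD11 at 1.32 to 3.40 FPKM and GstD2 at 0.382 to 8.24 FPKM. In the wild type the epsilon order was GstE8 (56.6 FPKM in both libraries), GstE1 (44.9 and 48.2 FPKM), GstE12 (40.6 and 30.2 FPKM) and GstE3 (26.2 and 27.4 FPKM). GstE8 had the highest epsilon value in both wild-type libraries, but its deposited intervals overlapped those of GstE1, and those of GstE1 and GstE12 overlapped in wild type replicate 1. The intervals of GstE12 and GstE3 overlapped in both wild-type libraries. The omega genes GstO1 and GstO2 were at 98.7 and 84.8 FPKM and at 78.7 and 75.9 FPKM in wild-type testes, and GstO3 was at 14.6 and 14.4 FPKM. Among the theta genes GstT1 was the highest in each library, at 23.3 to 34.0 FPKM, above GstT2, GstT4 and GstT3.

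The 8 genes below the minimum were GstD4, GstD6, GstD8, GstE4, GstE10, GstE13, GstE14 and GstZ2, and their highest single value was 1.66 FPKM, of GstE14 in mutant replicate 1. GstE14, known as Noppera-bo, serves ecdysteroid synthesis in the larval ring gland, and no library of these testes held more than an estimated 3 fragments of it. GstD6, GstD8, GstE10 and GstE13 were listed at 0 in all 4 libraries. GstE10 and GstE13 are also 2 of the 7 family genes whose locus overlaps that of another row in the tables, GstE10 with GstE1 and GstE13 with CG18659. Over all rows, 26.2% of those with an overlapping locus were listed at 0 in all 4 libraries against 14.6% of those without, so a listed 0 of these genes is not read as absence. The nearest genes to the minimum were GstE14 with a mean of 0.710 FPKM below it and GstD11 with 1.997 FPKM above it.

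Most of the family lies in tandem clusters, and high and low genes alternate along part of the delta cluster. All 11 delta genes lie within 20.8 kb of chromosome 3R (12364776 to 12385624, dm6), and 7 of them consist of a single exon. Along the strand of the reference, the well expressed GstD9 and GstD1 are followed by the low GstD2, then GstD3, then GstD4 at or near 0, then GstD5, then GstD6 listed at 0. Beyond GstD6 the genes GstD7, GstD8 and GstD11 were all low or listed at 0. The epsilon genes GstE1 to GstE10 lie within 13.2 kb of 2R (18396638 to 18409835), of which 9 have a single exon and 8 passed the minimum. GstO1, GstO2 and GstO3 lie within 6.0 kb of 3L (8518885 to 8524866), with the eye pigment gene se, also an omega transferase, between GstO3 and GstO2. GstT1 and GstT2 are adjacent on 2R and GstZ1 and GstZ2 on 3R. The 35 genes matched the reference annotation by name, 35 in their start and 34 in their end. Tandem copies of a family resemble each other in sequence, and no source used here says how fragments that fit several copies were assigned, so the split of a level between neighbours is uncertain.

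**Figure D2:**
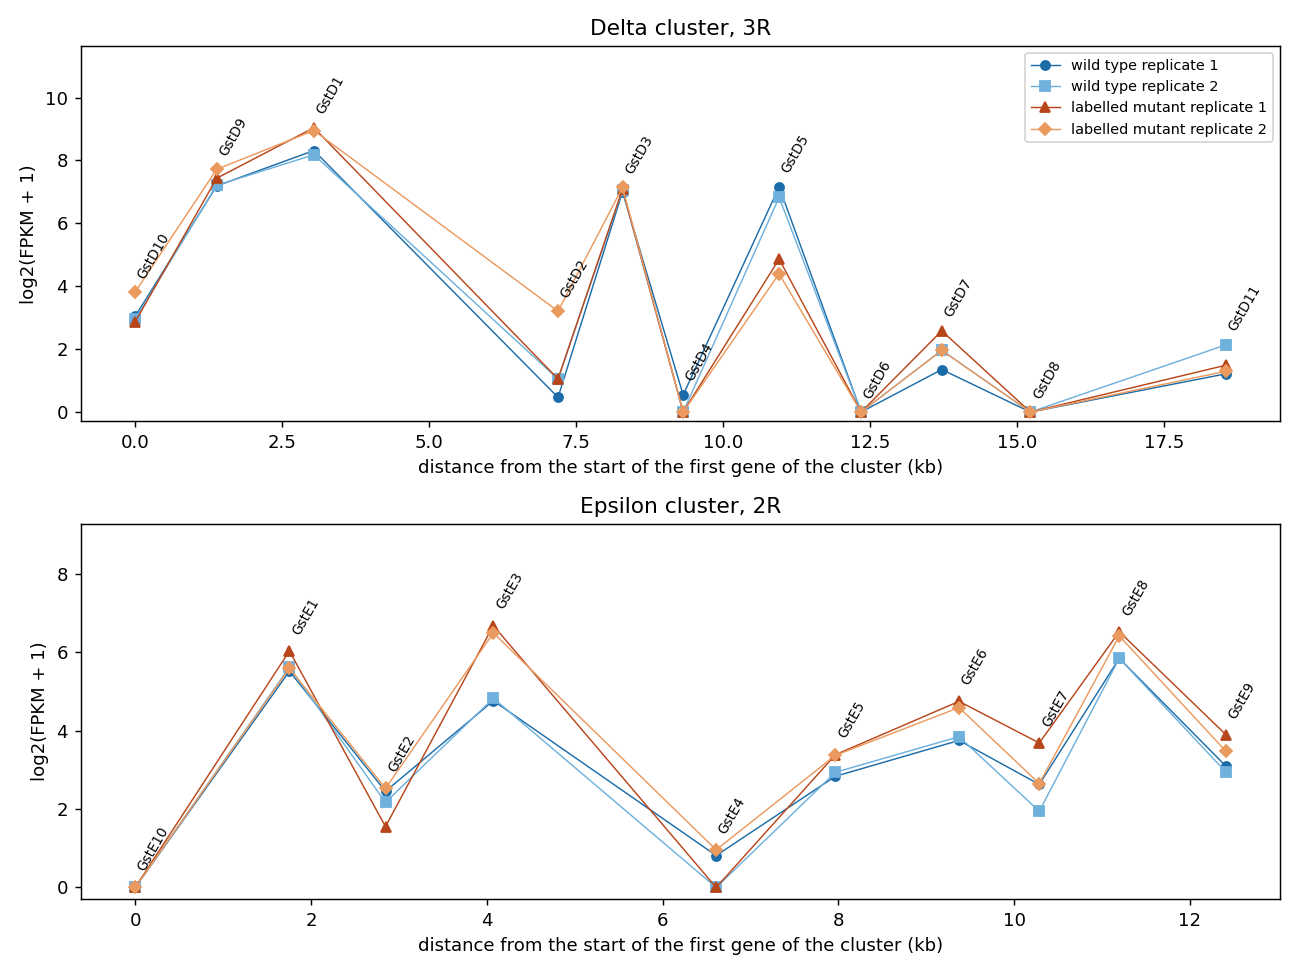
Levels as log2(FPKM + 1) along the delta cluster of 3R and the epsilon cluster of 2R, against the distance in kb from the start of the first gene, with lines that only join the points of a library. GstD3 is at about the same height in all 4 libraries while GstD5, 1919 bases further, is lower in both mutant-labelled libraries; in the epsilon cluster the same libraries are higher at GstE3, GstE6 and GstE8.

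The 2 mutant-labelled libraries were then set against the 2 wild-type libraries, with the reservation on mutant replicate 2 given above. Of the 27 genes tested, 6 rose in the mutant-labelled libraries (GstS1, GstD1, GstE3, GstE6, GstE8 and GstO3), 1 fell (GstD5) and 20 did not pass (limma on log2(FPKM + 1), adjusted p under 0.05 over 10784 genes). Of all genes tested, 11.4% rose and 8.67% fell by the same rule, 20.1% in either direction. The log2 fold change was above 0 in 23 of the 27, against 49.4% of all genes tested, and its median was 0.49 over the 27 and -0.01 over all genes tested. In 17 of the 27 both mutant-labelled libraries lay above both wild-type libraries, against 32.2% of all genes tested, and in 2 (GstD5 and GstO1) both lay below, against 32.7%.

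**Figure D3:**
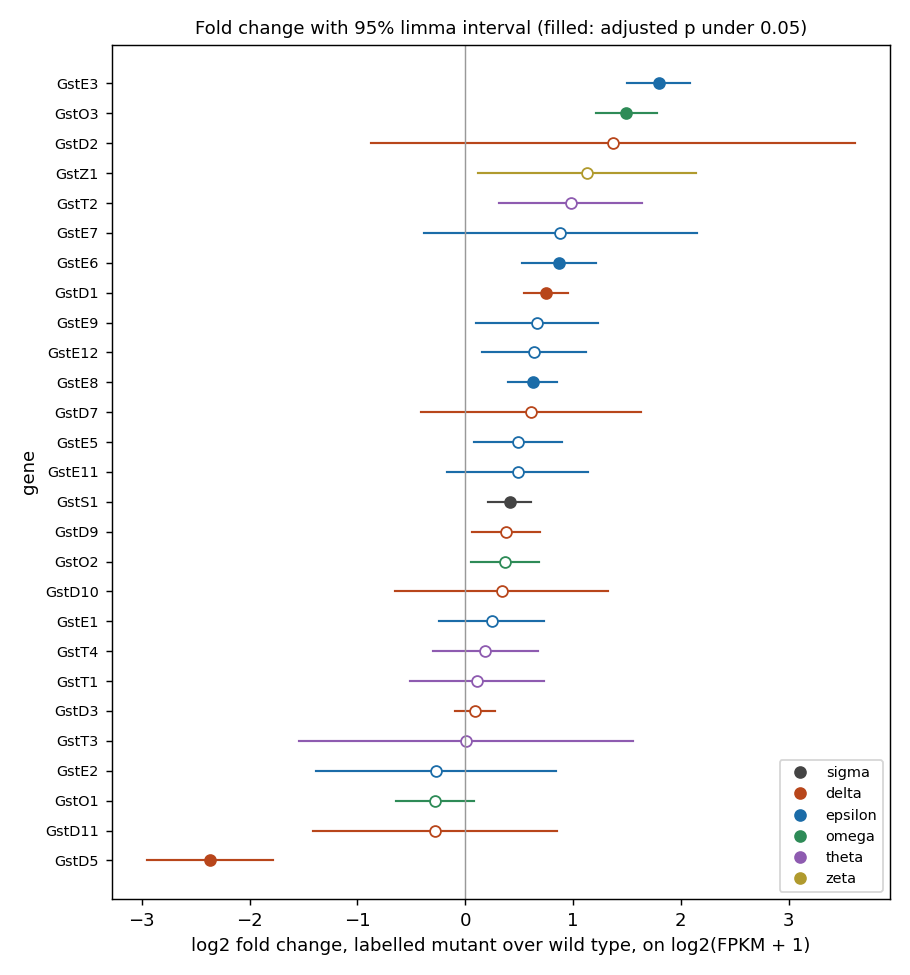
Log2 fold change of each of the 27 genes, labelled mutant over wild type on log2(FPKM + 1), with its 95% interval from limma and coloured by class; filled points passed adjusted p under 0.05. The 6 filled points on the right run from 0.41 for GstS1 to 1.79 for GstE3, and GstD5 is alone on the far left at -2.37.

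GstD5 had the largest log2 fold change of the family on log2(FPKM + 1), although the ratio of group means was larger for the low and scattered GstD2, at 6.42. It was at 142 FPKM (95% interval 128 to 156) and 113 FPKM (101 to 125) in wild-type testes and at 28.1 FPKM (18.0 to 38.2) and 20.0 FPKM (11.6 to 28.4) in the mutant-labelled libraries. The groups did not overlap, nor did any interval of one group with one of the other. It fell by 2.37 on the log2 scale (SE 0.21, limma adjusted p = 0.0103), to 0.189 of the wild-type mean. The estimated fragments behind these values were 423 and 356 in wild-type testes and 31.0 and 22.8 in the mutant-labelled libraries.

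Its direct neighbours, GstD4 and GstD6, were below the minimum for a test, so whether they follow it cannot be told. No other tested gene of the delta cluster fell. GstD7, beyond GstD6, was low, at 1.55 and 2.91 FPKM in wild-type testes and 4.99 and 2.89 FPKM in the mutant-labelled libraries (limma adjusted p = 0.313). GstD3, which ends 1919 bases before GstD5 starts, was at 127 and 132 FPKM in wild-type testes and at 135 and 140 FPKM in the mutant-labelled libraries (log2 fold change 0.09, 95% interval -0.09 to 0.27, limma adjusted p = 0.395). GstD1 was at 317 and 289 FPKM in wild-type testes and at 526 and 494 FPKM in the mutant-labelled libraries, and rose (log2 fold change 0.75, SE 0.07, limma adjusted p = 0.0120). GstD9, next to GstD1, was higher in both mutant-labelled libraries, at 172 and 210 FPKM, but did not pass (log2 fold change 0.38, SE 0.12, limma adjusted p = 0.0972). A ratio of genes within a library does not depend on how that library was scaled. The ratio of GstD5 to GstD3 was 1.12 and 0.858 in wild-type testes and 0.208 and 0.143 in the mutant-labelled libraries. These pairs of genes were chosen after their values were seen.

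In the epsilon cluster 3 of the 8 tested genes rose and none fell, against 11.4% and 8.67% of all genes tested. With so few genes the absence of a fall says little. GstE3 was at 26.2 FPKM (95% interval 19.3 to 33.1) and 27.4 FPKM (20.6 to 34.2) in wild-type testes and at 102 FPKM (80.0 to 124) and 89.3 FPKM (69.1 to 110) in the mutant-labelled libraries, with all intervals separate between the groups. It rose by a log2 fold change of 1.79 (SE 0.11, limma adjusted p = 0.00645). GstE1, which lies 1489 bases upstream of GstE3, overlapped between the groups, with 44.9 and 48.2 FPKM in wild-type testes and 64.6 and 47.3 FPKM in the mutant-labelled libraries (log2 fold change 0.25, 95% interval -0.24 to 0.73, limma adjusted p = 0.383). Accordingly, the ratio of GstE3 to GstE1 was 0.583 and 0.569 in wild-type testes and 1.58 and 1.89 in the mutant-labelled libraries, so the order of these genes was opposite in the 2 labelled groups.

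GstE6 rose from 12.5 and 13.4 FPKM in wild-type testes to 25.9 and 23.1 FPKM (log2 fold change 0.87, SE 0.13, limma adjusted p = 0.0217), and GstE8 rose from 56.6 FPKM in each wild-type library and reached 91.2 and 84.6 FPKM (log2 fold change 0.63, SE 0.08, limma adjusted p = 0.0183). Their libraries did not overlap between the groups, but some of their deposited intervals did, and the adjusted p of GstE8 reached 0.0578 over the 11 limma alternatives that kept all 4 libraries. Of the genes that did not pass, GstE5, GstE7, GstE9, GstE11 and GstE12 also had both mutant-labelled libraries above both wild-type libraries, with log2 fold changes of 0.49 to 0.88. Of all genes tested, 32.2% had this order, so it is not read as a rise of these genes. GstE5, GstE7, GstE9 and GstE11 rested on an estimated 3.5 to 12.1 fragments in each mutant-labelled library. GstE2 had overlapping groups, at 1.93 and 4.78 FPKM in the mutant-labelled libraries and 4.48 and 3.51 FPKM in wild-type testes.

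Of the omega genes only GstO3 passed, and the direct test of a difference between omega genes was not made. GstO3 was at 14.6 FPKM (95% interval 10.4 to 18.8) and 14.4 FPKM (10.4 to 18.4) in wild-type testes and at 44.3 FPKM (32.2 to 56.4) and 41.2 FPKM (29.9 to 52.6) in the mutant-labelled libraries. The groups and all their intervals were separate (log2 fold change 1.495, SE 0.10, limma adjusted p = 0.00816). GstO1 went the other way, from 98.7 and 84.8 FPKM to 81.7 and 69.2 FPKM, and did not pass (log2 fold change -0.28, SE 0.13, limma adjusted p = 0.215). GstO2 was at 78.7 and 75.9 FPKM in wild-type testes and at 91.3 and 109 FPKM in the mutant-labelled libraries (log2 fold change 0.37, SE 0.11, limma adjusted p = 0.102). Within a library, GstO3 over GstO1 came to 0.148 and 0.170 in wild-type testes and 0.542 and 0.596 in the mutant-labelled libraries. The neighbouring se was listed at 0 in all 4 libraries, and 61 exon bases of GstO2 overlap it.

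**Figure D4:**
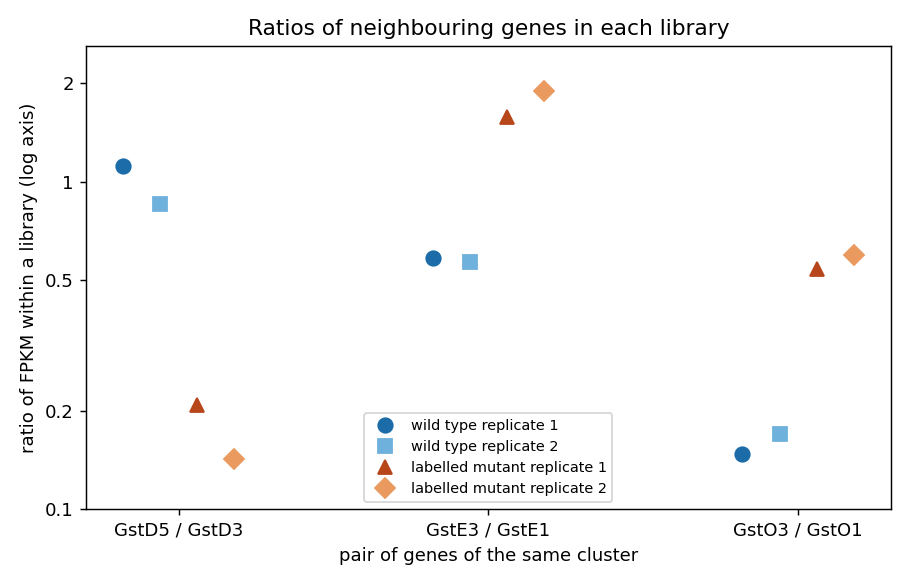
Ratio of FPKM of 3 pairs of genes of the same cluster in each of the 4 libraries, on a log axis. GstD5 over GstD3 is at 0.858 or above in wild-type testes and at 0.208 or below in the mutant-labelled libraries, while GstE3 over GstE1 and GstO3 over GstO1 are higher in the mutant-labelled libraries.

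In the sigma, theta and zeta classes only GstS1 passed. GstS1 was higher in both mutant-labelled libraries, with deposited intervals of 2371 to 2614 and 2095 to 2312 FPKM against 1695 to 1855 and 1663 to 1819 FPKM in wild-type testes, and rose by a log2 fold change of 0.41 (SE 0.07, limma adjusted p = 0.0309). With quantile normalization its log2 fold change was 0.01 (limma adjusted p = 0.920), and over all 11 alternatives that kept the 4 libraries its adjusted p ran from 0.0157 to 0.920. GstT2 was at 12.6 and 8.69 FPKM in wild-type testes and at 24.7 and 18.9 FPKM in the mutant-labelled libraries and did not pass (log2 fold change 0.98, SE 0.24, limma adjusted p = 0.0621, from 0.0346 to 0.0955 over the same alternatives); 223 exon bases of GstT2 overlap CG12926. GstT1, GstT3 and GstT4 had overlapping groups. GstZ1 had few fragments behind it, an estimated 2 to 5 in each library (1.57 and 0.740 FPKM in wild-type testes, 2.79 and 4.66 FPKM in the mutant-labelled libraries, log2 fold change 1.13, limma adjusted p = 0.109).

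By the deposited intervals alone, which cover the error of counting and assigning fragments within a library but not the spread between libraries, 4 of the 27 genes were higher with every interval of one labelled group separate from every interval of the other (GstS1, GstD1, GstE3 and GstO3), and 1 was lower (GstD5). Of all genes tested, 8.83% were higher and 9.31% lower by this rule. All 5 also passed in limma, while GstE6 and GstE8 passed in limma only. In limma no member passed without any 1 of the libraries, with 12, 11, 9 and 6 of the 27 at an unadjusted p under 0.05 without mutant replicate 1, mutant replicate 2, wild type replicate 1 and wild type replicate 2. The 7 called genes kept their direction in all these fits. Without wild type replicate 1, the library with accessory gland RNA, the number of genes called over the whole table was 12 higher and 170 lower.

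Genes that make, use and regulate glutathione were read next, from lists of known members. Of 23 tested genes for peroxidases, glutaredoxins, thioredoxins and superoxide dismutases 5 rose and none fell, with a median log2 fold change of 0.37. Of all genes tested, 11.4% rose and 8.67% fell by the same rule. Sod2, the mitochondrial superoxide dismutase, rose to 212 ± 0.0516 FPKM from 96.9 ± 2.18 FPKM (SD, n = 2 in each group; log2 fold change 1.12, limma adjusted p = 0.00631). The peroxiredoxin genes Prx2540-2 and Jafrac2 rose (132 to 287 FPKM for the first, 113 to 200 FPKM for the second), and Sod, the cytosolic superoxide dismutase, rose from 115.4 to 169 FPKM (limma adjusted p = 0.00660, 0.0134 and 0.0146). Prx2540-2 has a close copy in Prx2540-1, so its level is uncertain. The fifth, named beyond the rule of 4 per list, was the glutaredoxin gene Grx-1 (623 to 926 FPKM, limma adjusted p = 0.0279).

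None of 5 tested genes of glutathione synthesis and turnover passed (median log2 fold change 0.28), against 20.1% of all genes tested in either direction. Lists this short cannot be set apart from that share. Gclc, the catalytic subunit of the first enzyme of glutathione synthesis, was at 17.7 and 18.3 FPKM in wild-type testes and at 11.2 and 15.1 FPKM in the mutant-labelled libraries, and Gclm, its modifier subunit, was at 94.8 and 75.9 FPKM and at 117 and 93.3 FPKM. None of 9 tested genes of the CncC and Keap1 list passed (median -0.18), against the same 20.1%, and this list is short too. The gene cnc itself was lower in both mutant-labelled libraries, at 32.2 and 36.7 FPKM against 42.5 and 46.7 FPKM, without passing (log2 fold change -0.36, limma adjusted p = 0.105), and Keap1 was at 1.33 and 1.08 FPKM against 2.51 and 2.98 FPKM (limma adjusted p = 0.123). Of the transferases outside the naming rule, the microsomal Mgstl (26.1 to 49.3 FPKM) and the zinc finger protein gene gfzf (14.0 to 16.6 FPKM) were tested and did not pass.

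The other detoxification families are read against the 11.4% of all genes tested that rose and the 8.67% that fell. Of 41 cytochrome P450 genes, the oxidases that act ahead of conjugation, 2 rose, 7 fell and 32 did not pass (median log2 fold change -0.12), and Cyp4p1 rose from 2.81 to 19.6 FPKM and Cyp309a2 from 9.21 to 20.2 FPKM, while Cyp4ad1 fell from 20.7 to 2.01 FPKM and Cyp6d5 from 86.3 to 21.1 FPKM (limma adjusted p = 0.00664, 0.0216, 0.00691 and 0.0135). Of 6 UDP-glycosyltransferase genes, which attach sugars in place of glutathione, Ugt86Dd fell from 4.70 to 0.889 FPKM (limma adjusted p = 0.0485) and none rose (median -0.13). Of 2 tested multidrug transporter genes MRP, an exporter of glutathione conjugates, fell to 11.2 ± 0.132 FPKM from 24.8 ± 1.47 FPKM (SD, n = 2 in each group; log2 fold change -1.07, limma adjusted p = 0.0138). In the tyrosine degradation list, the pathway of the zeta class, 1 of 4 genes was tested and it did not pass. The differences between these lists and the transferases were not tested.

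**Figure D5:**
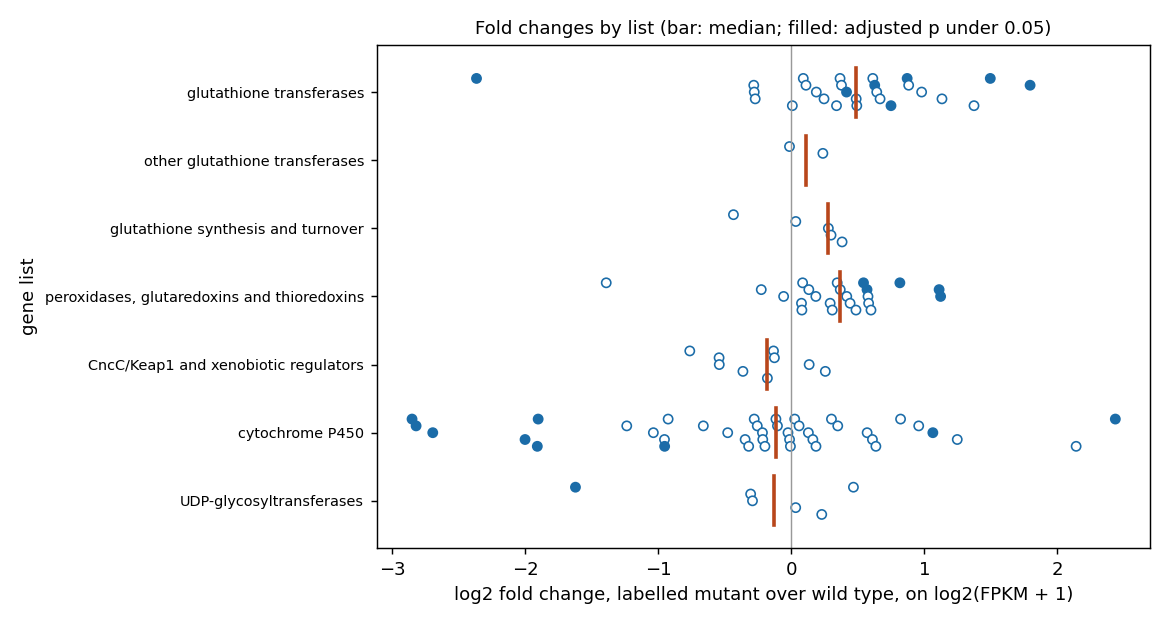
Log2 fold changes, labelled mutant over wild type on log2(FPKM + 1), of the tested genes of 7 lists, with 1 point per gene, filled where adjusted p was under 0.05, and a bar at the median. The median is 0.49 for the transferases and 0.37 for the peroxidase and thioredoxin list, and it is -0.12 for the cytochrome P450 genes.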

How the data were processed

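Testis libraries were grouped by the genotype in their titles. Per the labels' protocols, 1 µg of total RNA from 50 testes went into each TruSeq library for the MiSeq. The submitters' processing notes list TopHat, Cufflinks and the build dm6; no source used here gives versions, annotation, strand use or the handling of fragments that fit several places. Each library's deposited table holds gene FPKM made by the authors and, per the file headers, a lower and upper 95% bound. Rows of repeated names (380 rows of 145 names, none of the family) were summed. Fragment numbers were estimated by dividing 2 FPKM by the distance up to the upper bound and squaring; they entered no count model. In the libraries labelled mutant, of lower depth, intervals are wider.

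limma 3.58.1 (eBayes with trend) in R 4.3.3 was run on log2(FPKM + 1) for the 10784 genes whose mean reached 1 FPKM, p-values being adjusted by Benjamini-Hochberg and called under 0.05; fold changes of low genes are understated on this scale. The procedure was run on simulated data with independent noise of the same size in both groups. Those data had no depth difference between groups, so the run does not cover the one seen here. p-values measure the spread between 2 libraries per group, moderated by a variance trend over all genes tested. Alternatives changed the pseudocount, filter, scaling, length trend, variance model and replicate block, and left out each library. Exons and overlaps were read from Ensembl's BDGP6 annotation, whose gene starts matched the tables. All tested family genes were described, and of each other list up to 4 called genes with the smallest adjusted p. The members, lists and tests were chosen with earlier results of these data known.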

Additional observations from a re-analysis of the deposited data

How the results depend on the processing

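With all 4 libraries kept, the 11 alternative settings called 4 to 8 family genes higher and 1 or 2 lower. Over the whole table the same settings called 494 to 1446 genes higher and 507 to 2046 lower. GstE3, GstO3, GstD1, GstE6 and GstD5 passed in every one of them. GstS1 did not pass with quantile normalization, without the variance trend, with the transcript length trend removed or with libraries scaled to equal FPKM sums, and GstE8 did not pass without the variance trend or with that last scaling. Libraries scaled to equal FPKM sums, chosen after the data were seen together with the transcript length trend, moved the median log2 fold change of all genes to -0.27, that of the family to 0.24, and added GstO1 as a second lower gene (2 lower). Over the whole table this scaling gave 588 higher and 2046 lower genes. No variance trend gave 494 and 609, the locus length trend removed 583 lower, the transcript length trend removed 507 lower.

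With the replicate number as a block 8 family genes were higher and 1 lower, with GstE12 and GstT2 added as with median scaling, and GstT2 also passed with quantile normalization and with a mean of at least 5 FPKM. Under the block 1075 of all genes were higher and 596 lower, and with median scaling 1446 were higher and 781 lower. The replicate differences of both groups correlated at -0.05, so the numbers were not taken to pair the samples. Leaving out 1 library left 0 family genes in either direction, with adjusted p of the 7 called genes at 0.0627 to 0.266, and among all genes 0 to 12 higher and 0 to 251 lower. The number of higher family genes with separate intervals was then 4 to 7, a count that can only stay or rise when fewer pairs of libraries must be separate, so it says nothing of stability.

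Directions turned only in genes that had not passed. GstT1 was at -0.024 with the locus length trend and -0.038 with the transcript length trend removed, -0.17 scaled to equal sums, and ran from -0.15 to 0.37 without 1 library. GstD3 was at -0.083 with quantile normalization, -0.20 scaled to equal sums, and -0.0040 and -0.031 with the length trends removed. GstT3 was at -0.031 with a pseudocount of 0.1, -0.087 with the transcript length trend removed, -0.24 scaled to equal sums, and -0.75 to 0.76 without 1 library. Scaled to equal sums, GstE1 was at -0.040 and GstT4 at -0.071. GstD11 was at 0.040 with quantile normalization and -0.74 to 0.18 without 1 library, GstE2 at -0.76 to 0.22 and GstD10 at -0.13 to 0.81. The cause was not tested. Depth limits the low genes, which rest on few fragments in the libraries labelled mutant, also above 5 FPKM. GstE5, at 9.47 and 9.36 FPKM in these libraries, had an estimated 8.0 fragments in each.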
